A study of Mus musculus with 6 samples.

Results

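Fat cells are endocrine cells, and 10 genes that encode factors they are known to secrete were followed in the interscapular brown fat of newborn mice: Lep, Retn, Cfd, Rbp4, Nampt, Fgf21, Nrg4, Bmp8b, Metrnl and Gdf15. They were taken from the deposited table by their gene symbols, and all 10 were found among its 19241 genes. The study sequenced RNA from the whole interscapular depot in 6 libraries. The 3 WT libraries came from newborns whose Fstl1 gene was floxed, and the 3 KO libraries from newborns in which Fstl1, which encodes the secreted glycoprotein follistatin-like 1, was deleted in the Myf5 lineage. Myf5 marks precursors of skeletal muscle and of much of the interscapular brown fat, so other cells of the depot keep the gene. The labels do not say whether the WT animals carried the recombinase, or whether the 3 libraries of a group came from separate animals. The p-values therefore measure the spread between these libraries, which may be technical.

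Adipokines act on appetite, insulin action and inflammation. Leptin reports fat stores to the brain, resistin and adipsin are abundant products of mouse adipocytes, and retinol-binding protein 4 carries retinol in blood. Brown fat adds factors called batokines, which act on nerves, liver or the adipocytes themselves: neuregulin 4, fibroblast growth factor 21, bone morphogenetic protein 8b and meteorin-like. Fgf21 and Gdf15 are also known targets of the integrated stress response, the programme through which the transcription factor ATF4 answers amino acid shortage and mitochondrial or protein-folding stress.

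Values are FPKM (fragments per kilobase of transcript, normalized to library size), and triplets are given in the order of replicates 1, 2 and 3. This unit allows levels to be compared between genes. The steps between low FPKM values gave an estimated depth of 13900000 to 15100000 reads per library. Fstl1 itself lay at 7.93 to 13.08 FPKM in KO and at 54.37 to 130.04 FPKM in WT, with no overlap. The brown adipocyte markers identified the tissue in each library: the FPKM of 10 such genes summed to 7420 to 11600 in WT and 5650 to 7590 in KO. The 8 hepatocyte markers summed to at most 1.05 FPKM, with no value above 0.44. Liver is the main source of Rbp4 and Fgf21 elsewhere, and a part of liver RNA in their values was not tested. Some libraries stood apart. KO replicate 1 had a skeletal muscle marker sum of 296 FPKM against 1180 to 1730 in the others, and WT replicate 3 had an erythroid sum of 14400 FPKM against 3070 to 5060. Xist lay at 44.82 to 85.51 FPKM in WT and at most 0.92 FPKM in KO, and the Y-linked Ddx3y at 59.54 to 60.82 FPKM in KO and at most 0.23 FPKM in WT, so genotype and sex cannot be told apart in any difference given here. In bulk RNA, fewer cells of a type and less RNA per cell cannot be told apart either.

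In level, Cfd stood first with a mean of 703 FPKM over the 6 libraries. Nampt (192 FPKM) and Retn (146 FPKM) followed, and their ranges over libraries overlapped. Rbp4 (20.0 FPKM) and Nrg4 (18.8 FPKM) were close to each other, with overlapping ranges. Metrnl (2.2 FPKM), Fgf21 (1.84 FPKM) and Lep (0.735 FPKM) were low, and in this order neighbours overlapped again. Gdf15 (0.392 FPKM) and Bmp8b (0.0683 FPKM) lay under the mean of 0.5 FPKM needed for the test. They are therefore described by their values and an exact permutation test, in which 3 libraries against 3 cannot give a p below 0.1.

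KO was compared with WT on log2(FPKM + 1) with limma, a linear model that shares the estimate of spread across genes. Benjamini-Hochberg adjustment ran over the 13331 genes tested, and a gene passed at an adjusted p under 0.05. Differences on this scale understate the change of genes with low values. Of the 8 genes tested, 1 passed, Lep, which was lower in KO; of all genes tested 2.21% passed, 1.01% with lower and 1.21% with higher values in KO. An unadjusted p under 0.05 was found for 4 of the 8 (Lep, Nampt, Fgf21 and Metrnl), against 19.2% of all genes tested. The groups did not overlap in 3 of the 8 (Lep lower, Nampt and Metrnl higher), where the share over all tested genes was 24.9% (11.4% lower and 13.6% higher in KO). The median difference of the 8 was −0.05, with 4 above and 4 below 0, and that of all tested genes was 0.01.

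**Figure D1:**
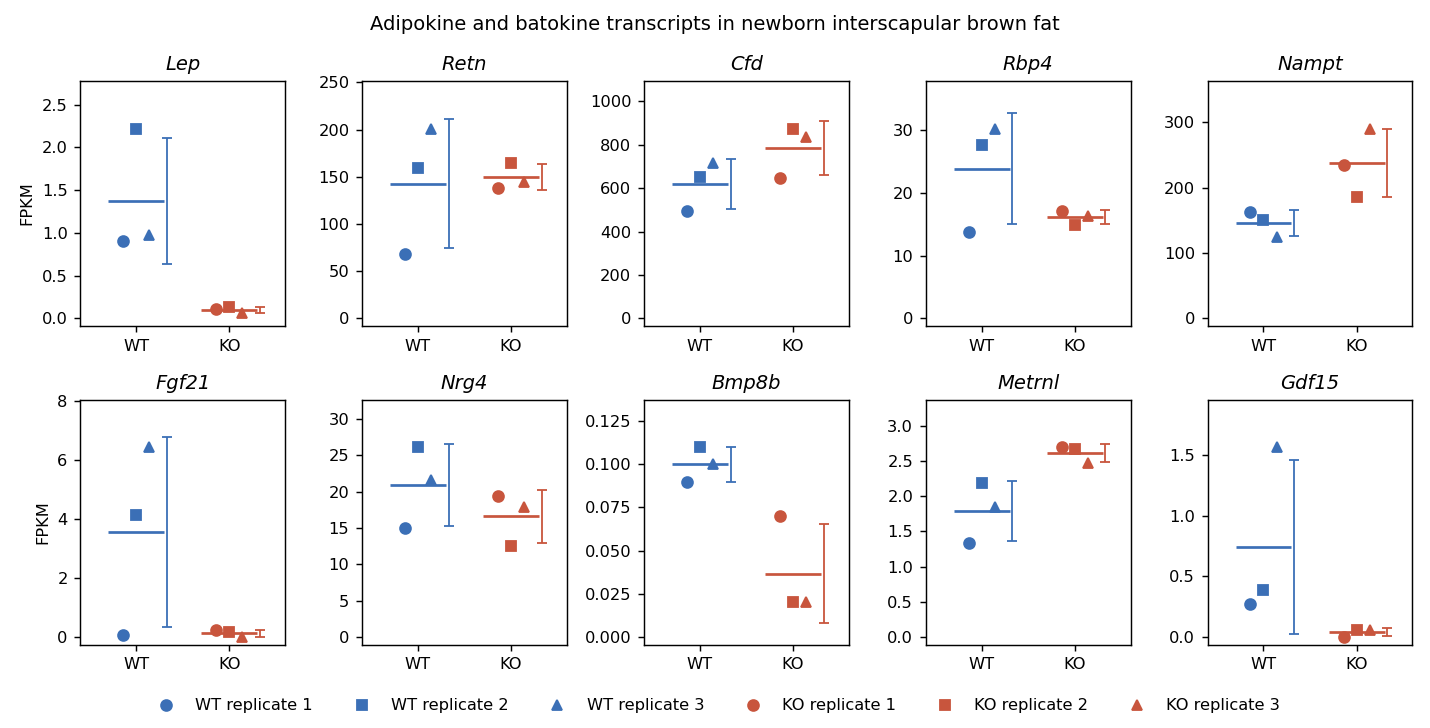
FPKM of the 10 genes in each library, 1 panel per gene with its own linear axis; marker shapes give the replicate number, horizontal lines the group means and the bars beside them 1 SD (n = 3). Lep and Gdf15 are near 0 in all KO libraries, Fgf21 is near 0 in KO and in WT replicate 1, and Nampt and Metrnl have their 3 highest values in the KO libraries.

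Lep, which encodes the satiety hormone leptin, was low throughout the KO libraries. Its transcript measured 0.91, 2.22 and 0.98 FPKM across the WT libraries, against 0.11, 0.13 and 0.06 FPKM across the KO libraries. Each KO library was lower than any WT library, and WT replicate 2 was the highest. Mean levels were 1.37 ± 0.737 FPKM for WT and 0.1 ± 0.0361 FPKM for KO (SD, n = 3 each), which puts KO at 7.3% of WT. On the log2(FPKM + 1) scale the difference was −1.07 (SE 0.21, limma adjusted p 0.0423). By the estimated depth these values rest on about 196 reads in the 3 WT libraries together and about 14 in the 3 KO libraries, a 13.8-fold difference with a 95% exact interval of 8.06 to 25.8 that covers counting error only. The direction held in all 16 alternatives in which Lep was tested, and 8 of them missed the threshold, 5 of which each left out 1 library. The adjusted p was 0.0973 without WT replicate 2, 0.107 without WT replicate 3, and 0.0949, 0.0965 and 0.118 without KO replicates 1, 2 and 3 (limma). Only without WT replicate 1 did Lep remain past the threshold among the fits with 1 library left out.

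Of the windows of 250 bases before the RefSeq start sites of these genes (12 windows for all 10 genes, assembly GRCm38.p6, to which the build mm10 of the submitters' processing notes corresponds), those of Lep, Fgf21 and Gdf15 are shown, Lep because it passed the test, and Fgf21 and Gdf15 because they are known targets of the integrated stress response. Each runs 5′ to 3′ towards the start site, and capitals mark motif matches. They were searched on both strands for TGATGNAA (the C/EBP-ATF composite element of stress-response genes), TTGCGCAA (a palindromic C/EBP site), CACGTG (an E-box), and TGACGTCA (a cAMP response element, not found in any of the 12 windows). No capitals of different motifs overlap. The Lep window is chr6:29059971-29060220 (plus strand), the Fgf21 window chr7:45615491-45615740 (minus strand), and the Gdf15 window chr8:70632096-70632345 (minus strand, before the start of the transcript listed in the deposited table).
Lep: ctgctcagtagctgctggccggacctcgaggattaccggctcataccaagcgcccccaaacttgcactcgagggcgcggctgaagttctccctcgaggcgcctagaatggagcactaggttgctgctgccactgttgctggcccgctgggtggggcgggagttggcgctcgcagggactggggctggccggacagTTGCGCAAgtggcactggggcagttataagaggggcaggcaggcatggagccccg
Fgf21: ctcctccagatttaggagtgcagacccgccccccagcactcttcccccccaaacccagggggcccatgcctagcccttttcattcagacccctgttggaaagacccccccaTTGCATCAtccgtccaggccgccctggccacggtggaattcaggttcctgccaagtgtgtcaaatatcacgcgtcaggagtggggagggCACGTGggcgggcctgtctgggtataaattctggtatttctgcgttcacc
Gdf15: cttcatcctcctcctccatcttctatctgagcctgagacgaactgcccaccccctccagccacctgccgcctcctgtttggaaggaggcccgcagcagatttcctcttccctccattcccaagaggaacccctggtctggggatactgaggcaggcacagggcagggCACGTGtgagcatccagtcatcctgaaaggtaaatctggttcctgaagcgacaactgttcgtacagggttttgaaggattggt
The Lep window holds the C/EBP palindrome from 55 to 48 bases before the start site, and 0.164% of the 32851 promoter windows of the same length hold it. The Fgf21 window holds the composite element, on the other strand, from 139 to 132 bases before its start and an E-box from 50 to 45 bases before it. Gdf15 has an E-box from 83 to 78 bases before its start. Of the windows not shown, 1 of the 2 for Rbp4 holds the composite element, from 76 to 69 bases before its start, and the others hold none of the 4 motifs. The composite element is in 3.45% and the E-box in 6.02% of all windows. A match describes the letters only, and binding was not measured.

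Neither Retn nor Cfd passed the test. Retn, which encodes resistin, measured 67.79, 159.4 and 201.07 FPKM across the WT libraries, against 138.56, 164.82 and 144.44 FPKM across the KO libraries. WT replicate 1 was the lowest library and WT replicate 3 the highest, so the KO values lay inside the WT range. The means were 143 ± 68.2 and 149 ± 13.8 FPKM (SD, n = 3 each). The difference was 0.20 (95% interval −0.58 to 0.97, limma adjusted p 0.803), and it was −0.26 without WT replicate 1.

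Cfd encodes adipsin, the serine protease also called complement factor D, which activates the alternative complement pathway. It measured 494.22, 649.81 and 718.26 FPKM across the WT libraries, against 645.05, 875.03 and 835.37 FPKM across the KO libraries. The groups overlapped through KO replicate 1. With means of 621 ± 115 and 785 ± 123 FPKM (SD, n = 3 each), the difference was 0.34 (95% interval −0.08 to 0.77, limma adjusted p 0.356).

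Rbp4, the retinol carrier, measured 13.71, 27.52 and 30.2 FPKM across the WT libraries, against 17.15, 14.89 and 16.33 FPKM across the KO libraries. The KO libraries were close together and lay between WT replicate 1 and the other two WT libraries. The means were 23.8 ± 8.85 and 16.1 ± 1.14 FPKM (SD, n = 3 each) and the difference −0.46 (95% interval −1.06 to 0.13, limma adjusted p 0.377). Without WT replicate 1 it was −0.80, at an adjusted p of 0.0386 (limma). Neither Stra6, the retinol uptake receptor that binds this carrier, nor Ttr, its partner in plasma, exceeded 0.06 FPKM in any library.

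Nampt encodes the enzyme that makes nicotinamide mononucleotide, the rate-limiting step of NAD salvage, and its protein is also found outside cells as visfatin. It measured 163.4, 150.74 and 124.48 FPKM across the WT libraries, against 234.91, 186.02 and 290.32 FPKM across the KO libraries. Each KO library was higher than any WT library. The KO mean was 162% of the WT mean (237 ± 52.2 against 146 ± 19.9 FPKM, SD, n = 3 each). The difference of 0.68 (SE 0.19) did not pass over all genes (limma, adjusted p 0.10), and over 17 alternatives it ran from 0.52 to 0.84, passing in 1 (array weights).

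Among the batokines, Fgf21 varied widely between WT libraries. This hormone of fasting and cold measured 0.08, 4.14 and 6.45 FPKM across the WT libraries, against 0.24, 0.15 and 0 FPKM across the KO libraries. By estimated reads that is 1, 56 and 86 in WT and 3, 2 and 0 in KO. The count of 0 in KO replicate 3 allows up to 0.221 FPKM, the level of 3 reads, so WT replicate 1 and the KO libraries cannot be told apart at this depth. The group means were 3.56 ± 3.22 and 0.13 ± 0.121 FPKM (SD, n = 3 each). Its difference of −1.62 (SE 0.59) did not pass (limma, adjusted p 0.186). Without WT replicate 1 it was −2.46, at an adjusted p of 0.0114, and without WT replicate 3 it was −1.07 (limma). Its co-receptor gene Klb was measured at 18.76 to 38.1 FPKM and its receptor gene Fgfr1 at 22.1 to 29.07 FPKM over the 6 libraries.

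Nrg4, a ligand of ERBB receptors that brown fat is known to release towards liver and nerves, measured 15.04, 26.15 and 21.55 FPKM across the WT libraries, against 19.4, 12.53 and 17.85 FPKM across the KO libraries. The groups overlapped. The means were 20.9 ± 5.58 and 16.6 ± 3.6 FPKM (SD, n = 3 each), a difference of −0.31 (95% interval −0.83 to 0.21, limma adjusted p 0.505). Its receptors Erbb3 and Erbb4 lay at or under 0.53 FPKM in the depot.

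Metrnl encodes meteorin-like, a factor that acts on immune cells and adipocytes. It measured 1.34, 2.19 and 1.85 FPKM across the WT libraries, against 2.7, 2.67 and 2.47 FPKM across the KO libraries. Each KO library was higher than any WT library, and the KO libraries were nearly equal. The KO mean was 146% of the WT mean (2.61 ± 0.125 against 1.79 ± 0.428 FPKM, SD, n = 3 each), from an estimated 27 to 44 reads per WT library and 50 to 54 per KO library. The difference of 0.38 (SE 0.16) did not pass over all genes (limma, adjusted p 0.239) and passed in none of 16 alternatives. Its paralog Metrn, at 0.76 to 1.93 FPKM, had a difference of −0.31 (limma, adjusted p 0.371).

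Bmp8b, a batokine known to be induced by cold and feeding in adult brown fat, was barely present at birth. It measured 0.09, 0.11 and 0.1 FPKM across the WT libraries, against 0.07, 0.02 and 0.02 FPKM across the KO libraries. KO was lower in each library, but the values rest on an estimated 13 reads in WT and 5 in KO, a ratio of 2.57 with a 95% exact interval of 0.86 to 9.21 for counting error alone. This interval includes equal levels in WT and KO, so no difference was shown at this depth. The exact two-sided permutation test gave 0.1, the smallest p possible, and could not decide. Of the genes under a mean of 0.5 FPKM, 3.28% had such lower, non-overlapping values in KO. Its close paralog Bmp8a was at 0 to 0.15 FPKM, and how reads shared by the pair were assigned is not given in the sources used here, so the split is uncertain.

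Gdf15 encodes a stress hormone that acts through a receptor of the hindbrain. It measured 0.27, 0.39 and 1.57 FPKM across the WT libraries, against 0, 0.06 and 0.06 FPKM across the KO libraries. Each KO library was lower than any WT library, and WT replicate 3 was the highest. Among the 5910 genes under the mean of 0.5 FPKM, 3.28% likewise had lower, non-overlapping values in KO. The estimated reads were 50 in the 3 WT libraries and 2 in the 3 KO libraries, a ratio of 24.7 with a 95% exact interval of 6.49 to 210 for counting error only. These reads were rounded to whole numbers in each library, which matters at such low counts. The ratio of the FPKM means was 18.6. The exact two-sided permutation test gave 0.1, the smallest p possible. In a fit without the filter on low values the difference was −0.67 and did not pass (limma, adjusted p 0.277).

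**Figure D2:**
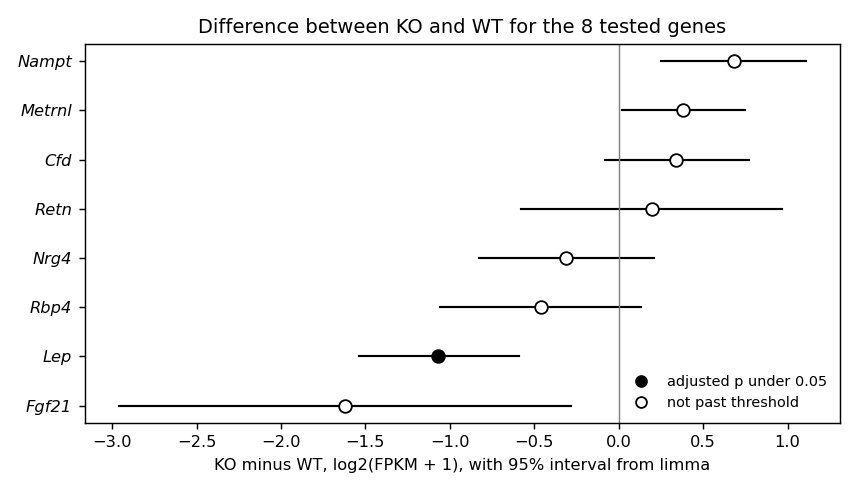
KO minus WT difference in log2(FPKM + 1) for the 8 genes tested, with 95% intervals from limma; the filled point passed an adjusted p of 0.05. Lep alone passed, at −1.07, while Fgf21 at −1.62 had the widest interval.

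WT replicate 1 was the lowest of the 3 WT libraries in 9 of the 10 genes, Nampt being the exception. These include the untested Bmp8b and Gdf15. The gap to the next library was small for Lep (0.91 against 0.98 FPKM) and Bmp8b (0.09 against 0.1 FPKM). Over all tested genes WT replicate 1 was the lowest in 41.2% and WT replicate 3 in 41.6%. WT replicate 1 also had the lowest sum of FPKM, 486449 against 518994 and 556968 in WT replicates 2 and 3. With WT replicate 1 left out, Lep, Rbp4 and Fgf21 passed the threshold (limma); with any other library left out, none of the 8 did. The plot of differences with each library left out shows this for each gene.

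**Figure D3:**
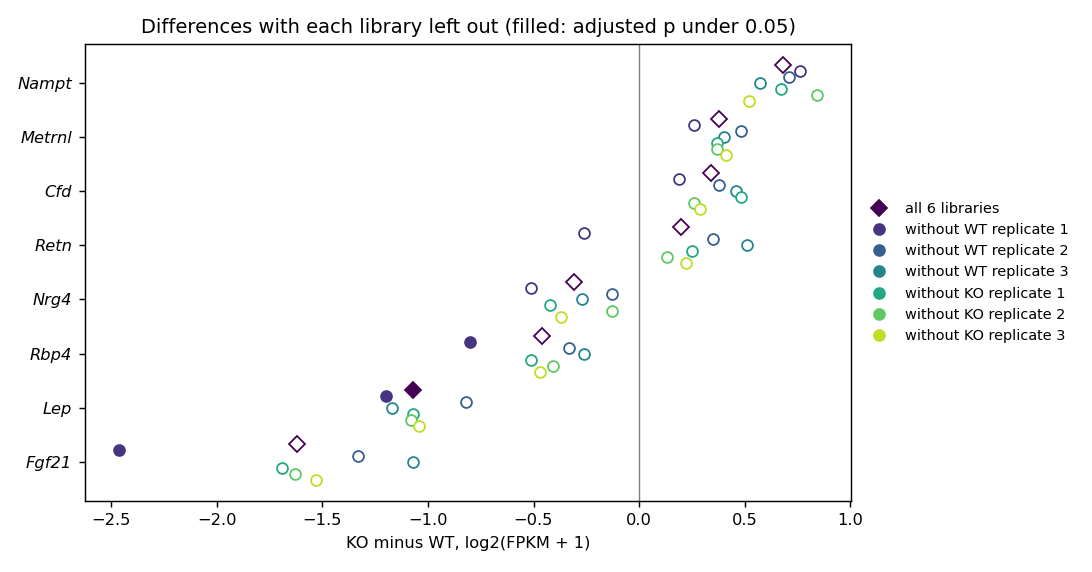
KO minus WT difference in log2(FPKM + 1) with all 6 libraries (diamonds) and with each library left out (circles, coloured by library); filled symbols passed an adjusted p of 0.05 in limma. Retn is the 1 gene whose sign turned, to −0.26 without WT replicate 1, and Rbp4 and Fgf21 passed only in that fit.

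Genes with the most similar pattern to Lep, Nampt and Fgf21, the 3 tested genes with the smallest p, were found by the mean absolute difference between deviations of log2(FPKM + 1) from each gene's own mean over the 6 libraries. A gene chosen in this way resembles the gene it was matched to by construction. Its difference between KO and WT and its p-value are therefore not separate results. Nearest to Lep was Axin2, a negative regulator and common target of Wnt signalling, at a distance of 0.04. It measured 2.62, 4.81 and 2.74 FPKM across the WT libraries, against 1.26, 1.15 and 1.05 FPKM across the KO libraries, with the same high WT replicate 2 (difference −0.99, limma adjusted p 0.0427). Ror2, which encodes a Wnt receptor, came at a distance of 0.10 (difference −1.01, limma adjusted p 0.0348). Between them lay Mir6418 (0.06), a microRNA gene of 115 nt whose values rest on at most about 3 reads in any library. The log2(FPKM + 1) scale compresses the low values of Lep, whose difference was −2.79 at a pseudocount of 0.1. Likeness to Lep was not computed at that pseudocount. For Nampt the nearest were Sycp3 (0.05), B230354K17Rik (0.05) and Esyt2 (0.06), none of which passed (limma, adjusted p 0.168 to 0.192). For Fgf21 they were more distant: Emc8-1190005i06rik (0.28), a readthrough gene whose reads overlap those of its neighbours, Mir7067 (0.30), a microRNA gene of 63 nt with at most about 4.8 estimated reads, and Apoc4 (0.33). Apoc4, an apolipoprotein gene, measured 1.3, 8.59 and 8.49 FPKM across the WT libraries, against 3.18, 2.12 and 1.12 FPKM across the KO libraries, low in WT replicate 1 as Fgf21 was.

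The lists here and below, and the marker lists, were chosen with earlier results of these data known. Their counts are therefore descriptive and are not a test against the shares over all genes. The integrated stress response list, which holds known regulators and targets of that response, had 2 of 20 tested genes lower in KO past the threshold, against 1.01% of all genes tested, and 0 higher, with a median difference of −0.21. An unadjusted p under 0.05 was found for 8 of the 20 (6 lower, 2 higher), against 19.2% of all genes tested. The genes that passed were Atf5 and Mthfd2. Atf5, a transcription factor related to ATF4, measured 180.74, 148.22 and 180.32 FPKM across the WT libraries, against 94.75, 95.15 and 70.33 FPKM across the KO libraries (difference −0.97, SE 0.17, limma adjusted p 0.0318). Mthfd2, an enzyme of mitochondrial one-carbon metabolism, measured 32.85, 13.78 and 13.34 FPKM across the WT libraries, against 2.48, 6.68 and 2.76 FPKM across the KO libraries (difference −2.05, SE 0.39, limma adjusted p 0.0391). Atf5 missed the threshold in 7 and Mthfd2 in 9 of 17 alternatives. Asns, asparagine synthetase, had a KO mean of 61.9 ± 5.35 against 96.9 ± 11.7 FPKM in WT (SD, n = 3 each) without passing (difference −0.64, limma adjusted p 0.0626). Other genes of the list did not share this direction, and 8 of the 20 had differences above 0 against 12 below. Ddit4, an example of those above, was at 46.4 to 131.92 FPKM in KO and 26.84 to 33.32 FPKM in WT (difference 1.22, limma adjusted p 0.099). Atf4 itself overlapped between the groups (difference −0.38, limma adjusted p 0.452). Chac1 and Trib3, singled out after their values were seen, were low in WT replicate 1 as Fgf21 was: Chac1 measured 0, 4.05 and 6.67 FPKM and Trib3 1.07, 12.51 and 10.75 FPKM across the WT libraries. Across the KO libraries Chac1 measured 0.94, 3.97 and 0.66 FPKM and Trib3 3.51, 10.96 and 7.21 FPKM, so unlike Fgf21 neither was near 0 in all KO libraries. The list as a whole was not low in WT replicate 1. Atf4 and Ddit3 had their lowest WT value there, but Mthfd2, Asns, Psat1 and Slc7a5 had their highest. Asns, for example, measured 108.02, 84.63 and 98.08 FPKM across the WT libraries.

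Around Cfd, 0 of 12 tested complement genes passed in limma, while 7 had an unadjusted p under 0.05 (6 higher, 1 lower in KO), against 19.2% of all genes tested, and the median difference was 0.30. C3ar1, the receptor for the C3a fragment, was at 2.43 to 2.64 FPKM in WT and 4.04 to 4.82 FPKM in KO (difference 0.60, limma adjusted p 0.0625). Cd55, a membrane inhibitor of complement activation, was at 6.62 to 10.82 FPKM in WT and 16.79 to 38.55 FPKM in KO (difference 1.30, limma adjusted p 0.0637), and passed in 2 of 17 alternatives. Cfb, factor B, the substrate of adipsin, was at 0.69 to 1.28 FPKM in WT and 1.82 to 2.82 FPKM in KO (difference 0.69, limma adjusted p 0.087). C3 itself overlapped between the groups (difference 0.14, limma adjusted p 0.763). The 8 macrophage markers summed to 106 to 156 FPKM in WT and 155 to 211 FPKM in KO, all 8 with differences above 0, and their part in the complement values was not tested.

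In NAD metabolism beside Nampt, 0 of 17 tested genes passed in limma, 3 had an unadjusted p under 0.05 (1 lower, 2 higher), close to the 19.2% of all genes tested, and the median difference was −0.01. Sirt1, an NAD-dependent deacetylase, was at 7.69 to 15.13 FPKM in WT and 17.96 to 23 FPKM in KO (difference 0.82, limma adjusted p 0.0969). Nnt, the mitochondrial transhydrogenase, was at 5.04 to 5.76 FPKM in WT and 2.9 to 4.17 FPKM in KO (difference −0.54, limma adjusted p 0.115). Aox1, an aldehyde oxidase that acts on nicotinamide derivatives, had a difference of 0.59 (limma, adjusted p 0.122).

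**Figure D4:**
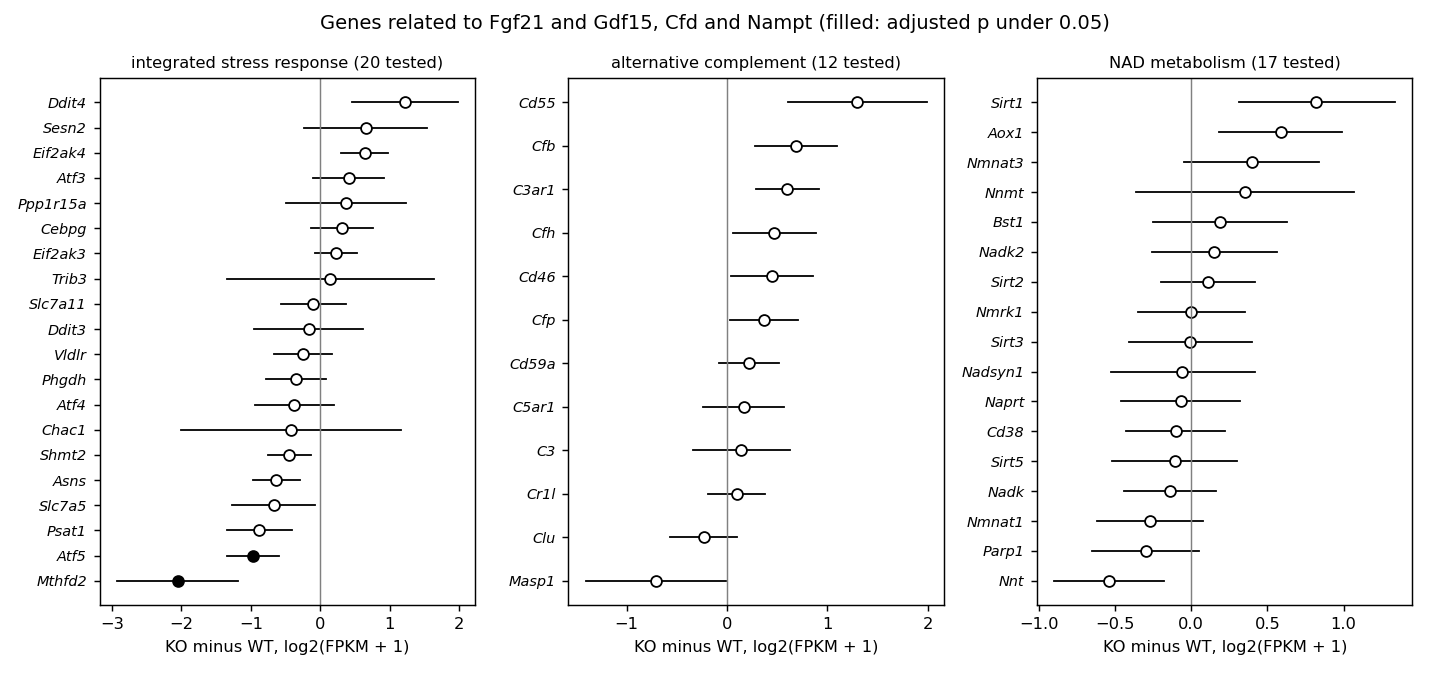
KO minus WT difference in log2(FPKM + 1) with 95% intervals from limma for the tested genes of the stress response, complement and NAD lists; filled points passed an adjusted p of 0.05. Atf5 and Mthfd2 passed, both below 0, and 10 of the 12 complement genes lie above 0.

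Among receptors and carriers for these factors, 0 of 14 tested genes passed in limma and 1 had an unadjusted p under 0.05, against 19.2% of all genes tested, with a median difference of 0.10. That gene was Acvr2b, an activin and BMP receptor, at 0.88 ± 0.108 FPKM in WT and 1.51 ± 0.182 FPKM in KO (SD, n = 3 each; difference 0.41, limma adjusted p 0.165). Acvr2a (0.52, limma adjusted p 0.294) and Klb (−0.39, limma adjusted p 0.342) overlapped between the groups. Lepr, the leptin receptor, was at 1.7 to 4.97 FPKM over the 6 libraries (0.35, limma adjusted p 0.456).

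Of 35 other secreted factors tested, 1 passed, lower in KO, against 1.01% of all genes tested, and the median difference was 0.07. An unadjusted p under 0.05 was found for 13 of the 35 (5 lower, 8 higher), against 19.2%. The gene that passed was Apln, which encodes the vasoactive peptide apelin. Apln measured 4.16, 5.11 and 7.05 FPKM across the WT libraries, against 0.77, 1.22 and 0.65 FPKM across the KO libraries, with no overlap (difference −1.76, SE 0.20, limma adjusted p 0.00841). It was past the threshold in all 16 alternatives in which it was tested, with adjusted p from 0.000403 to 0.0499. The C1q and TNF-related proteins, a family of adiponectin relatives, held values on both sides: C1qtnf3 had a difference of −0.66 (limma, adjusted p 0.0674) and C1qtnf1 one of 0.65 (limma, adjusted p 0.0969). Adipoq, adiponectin itself, overlapped between the groups at 889.1 to 1215.69 FPKM (0.24, limma adjusted p 0.392).

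Among 20 regulators of adipocyte genes, 2 passed, both higher in KO, against 1.21% of all genes tested, and the list's median difference was −0.35. An unadjusted p under 0.05 was found for 11 of the 20 (6 lower, 5 higher), against 19.2%. Klf15, a glucocorticoid-induced transcription factor, measured 2.56, 4.71 and 2.57 FPKM across the WT libraries, against 15.65, 11.19 and 40.63 FPKM across the KO libraries (difference 2.29, SE 0.41, limma adjusted p 0.0337); it missed the threshold in 6 of 17 alternatives. Irf4 lay at 0.69 to 1.08 FPKM in WT and 10.04 to 198.99 FPKM in KO (difference 4.25, limma adjusted p 0.0447), and KO replicate 3 set its size, with 2.99 at an adjusted p of 0.00202 without it (limma); it missed the threshold in 9 of 17 alternatives. Prdm16, a determinant of brown fat identity, did not pass (−0.87, limma adjusted p 0.0519).

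Some markers of the fat cells themselves were lower in KO. Of the 12 adipocyte markers, 9 had differences below 0 (median −0.31), 4 had an unadjusted p under 0.05, all lower in KO, and 2 passed, Plin1 and Agpat2. Of the 10 brown adipocyte markers, 6 were below 0 (median −0.55), 6 had an unadjusted p under 0.05 (5 lower, 1 higher), and 2 passed, both lower in KO; over all genes tested 19.2% had such a p and 1.01% passed with lower values. The adipocyte marker sums overlapped, at 22700 to 26200 FPKM in WT and 21000 to 24800 FPKM in KO, but most of each sum was Fabp4, a fatty acid carrier, at 13999.94 to 17388.98 FPKM. The part of these markers in the Lep difference was not tested.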

How the data were processed

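RNA of the whole newborn interscapular depot was measured in 6 libraries, grouped by the genotype in their titles. The deposited values are FPKM, per the file headers, rounded to 2 decimals. The submitters' processing notes name HISAT2 2.0.4, Bowtie2 2.2.5, DESeq2 and the build mm10, with no roles; the counting tool, annotation and strand handling are not given in the sources used here. FPKM are not counts, so no count model was fitted. Genes whose mean over the libraries reached 0.5 FPKM were fitted as log2(FPKM + 1) with limma 3.58.1 in R 4.3.3 (eBayes with an intensity trend, no covariates) and adjusted by the Benjamini-Hochberg method at 0.05. On simulated data with 13331 genes, of which 200 changed by 1.5 on the log2 scale, the fit recovered 169, with 8 false calls.

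Reads were estimated from the steps between low FPKM of single-transcript genes of 500 to 1300 nt (GENCODE vM21 lengths less 50 nt): 78.0% to 83.4% of values lay within 0.2 of a whole read, against 45.9% to 48.7% with shuffled lengths. Whole reads were not recovered for the table. Intervals on reads are exact 95% intervals for counting error only, from reads rounded to whole numbers in each library.

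The genes, 6 related lists and 11 marker lists were chosen with earlier results of these data known. Their counts beside the shares over all genes are therefore descriptive. Of 237 listed symbols, 235 were in the table. Besides the 10 genes and Fstl1, each related list's genes past the threshold, and otherwise up to 3 with the smallest p, are named, and so are the 3 nearest genes in pattern to Lep, Nampt and Fgf21. Some genes outside this rule are also named, such as Ddit4, Atf4, C3, Adipoq and Lepr. There were 17 alternatives. Promoter windows are from RefSeq, GRCm38.p6.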

Additional observations from a re-analysis of the deposited data

How the results depend on the processing

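The number of the 10 genes past the threshold was 1 (Lep) and stayed 1 with pseudocounts of 0.1 and 0.01, quantile normalization, median-of-ratios scaling, eBayes without trend and robust eBayes. It was 0 with no filter, 0 with a mean of at least 5 FPKM (which removes Lep), 0 rescaled to a common sum, and 4 with array weights (Lep, Rbp4, Nampt and Fgf21), whose estimate stopped before it converged. With 1 library left out it ran from 0 to 3. Lep had adjusted p (limma) of 0.0924 with no filter and 0.0506 rescaled to a common sum, and its difference ran from −3.58 at a pseudocount of 0.01 to −0.82 without WT replicate 2. Retn turned to −0.09 with array weights and, with 1 library left out, ran from −0.26 (without WT replicate 1) to 0.51; no other of the 8 tested genes changed sign. Fstl1 missed the threshold only with no filter (difference −2.79, limma adjusted p 0.0606).

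Over all genes 295 passed, and 35 with no filter, 191 rescaled to a common sum, 3181 with array weights and 31 to 370 with 1 library left out (fewest without WT replicate 3, most without WT replicate 1). Of the 295, 45.4% were lower in KO; leaving out KO replicate 2 gave 25.8%. The fits with 1 library left out hold fewer samples, and the fit with no filter holds more genes (19241 against 13331). The causes of these changes in number were not tested.

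WT and KO share replicate numbers, but deviations of same-numbered libraries correlated at only 0.0681, 0.0433 and 0.0433, so the numbers were not taken as pairs. With the replicate block 167 genes passed, 135 of them among the 295, and 0 of the 10 genes (Lep, limma adjusted p 0.0523). Depth limits all values of Bmp8b and the KO values of Lep, Fgf21 and Gdf15, which rest on 0 to 6 estimated reads per library.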
